A study of Mus musculus with 16 samples.

Results

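The 29 genes described here encode the enzymes, carriers and regulators that burn fatty acids in the mouse liver and feed the making of ketone bodies. They were taken as a list of genes named for their function, and their symbols were matched to the gene identifiers of the count tables through a GRCm38 annotation. The list was chosen with earlier results of these data known. A share of its genes above that of all genes is therefore a description and no independent evidence. All 29 matched 1 identifier each among 55471, and all 29 held enough fragments to be tested among 17046 genes tested. The list holds 2 regulators, 4 genes of the carnitine shuttle, 8 of the mitochondrial beta-oxidation cycle and 5 of auxiliary steps and electron transfer. It also holds 2 enzymes found in mitochondria and peroxisomes, 5 peroxisomal genes, 1 ketone gene (Bdh1), a fuel switch kinase (Pdk4) and a further target of the same receptor (Vnn1).

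RNA was sequenced from 16 mouse livers, 4 in each of 4 groups. Aged controls were 102 weeks old and had no antibiotics. The groups PAM I and PAM II were also 102 weeks old and had received antibiotics, which the series title places in early life; the drugs and doses are not in the sources used here. Young mice were 12 weeks old and had no antibiotics, so no young group with antibiotics enters any comparison. Neither strain, sex, litter nor batch is given, and nothing states that the libraries of a group came from separate animals. The p-values therefore measure the spread between these samples, which may be partly technical.

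Fatty acids enter mitochondria as carnitine esters and are shortened in repeated rounds of dehydrogenation, hydration, oxidation and thiolysis, with electrons passed through the electron transfer flavoprotein to the respiratory chain. Very long and branched chains, and products of omega-oxidation, are shortened first in peroxisomes. In the fasting liver much of the resulting acetyl-CoA becomes ketone bodies, and the nuclear receptor PPARA, encoded by Ppara, raises the transcription of many genes at each of these stages.

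Libraries held between 36968993 and 52090914 fragments assigned to genes. All 8 hepatocyte markers examined were detected in each library, so the tissue label was borne out, with a summed level between 61159 and 119640.3 CPM. CPM are fragment counts divided by library size, here after TMM scaling, in the usual unit of sequencing depth. Other tissue in the samples differed between livers. The summed level of 15 skeletal muscle transcripts ran from 5.97 to 148 CPM in young livers and from 5.44 to 20.2 CPM in aged controls. In PAM I it ran from 8.98 to 57.3 CPM and in PAM II from 8.18 to 135 CPM. That of 10 Kupffer cell (resident macrophage) transcripts ran from 258 to 366 CPM in young livers and from 238 to 1767 CPM in aged ones, and 8 transcripts of monocyte-derived macrophages summed to between 40 and 59.5 CPM in young livers and 54.3 to 268 CPM in aged ones. In such whole-tissue RNA, fewer cells of a type and less RNA per cell cannot be told apart.

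Levels per length spanned a wide range. RPKM, the CPM per kilobase of summed exons, was highest for Acaa1b, a peroxisomal thiolase, at 860.1 ± 169 in young livers (SD, n = 4), 943 ± 269 in aged controls, 1366 ± 278 in PAM I and 923 ± 159 in PAM II. Acaa2, the mitochondrial thiolase, came next with 506 ± 57.5 RPKM in young livers. Acaa1b and Acaa1a are close paralogs, and the counting could split their reads unevenly, so the share of each is uncertain. Exons of Etfb overlap those of Gm45233 and Mir7051 on the same strand, and exons of Crot those of Gm27941. Fragments in these stretches may be missing from the counts of Etfb and Crot. Pdk4 was lowest, at 5.46 ± 3.87 RPKM in young livers. Among the 12 aged livers the highest level divided by the lowest was 1.27 for Etfa at one end and 3.46 for Ppara at the other, with 3.18 for Pdk4, 3.02 for Ehhadh and 2.84 for Acaa1b. The median of this ratio was 1.72 over the members and 2.01 over all genes tested.

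**Figure D1:**
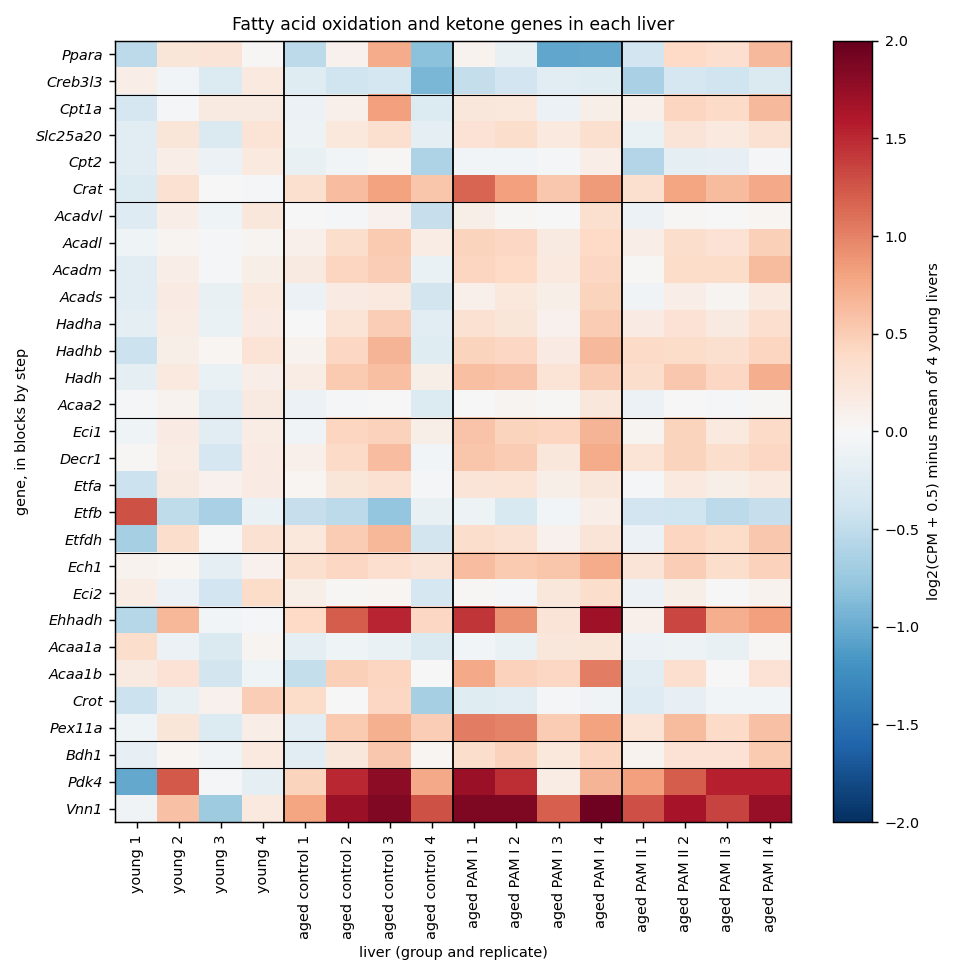
Each cell gives a gene's log2(CPM + 0.5) in 1 liver minus the mean of that value over the 4 young livers, with genes in rows by step and livers in columns by group. Vnn1 is red in each aged liver, Etfb stands out in young 1, and neighbouring genes of a column tend to share a shade.

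The first question was whether the transcripts of fatty acid oxidation differ between 102-week and 12-week livers that had no antibiotics. Of the 29 members, 1 passed the test, which is 3.45% of them, against 3.23% of all genes tested (327 higher and 224 lower). That member was Vnn1, pantetheinase, which releases pantothenate and cysteamine from pantetheine, a breakdown product of coenzyme A, and is a known PPARA target. Its mean was 43.2 ± 15.4 CPM in young livers and 114 ± 35.4 CPM in aged controls (SD, n = 4). The members' median log2 fold change was 0.17, and that of all genes tested was -0.0077; 20 members had a positive and 9 a negative value. Without adjustment, 10 of the 29 members had a p under 0.05, and 3242 of 17046 genes tested, which is a smaller share. The difference between these unadjusted shares was not tested. The share of members called was close to the background, so nothing particular to the list can be read from it. The members' median was 0.03 without aged control 3, with 17 positive values, and 0.092 without young 1, also with 17.

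A second comparison, added after the data were seen, set the mean of the 3 aged groups against the young group, so that 12 aged livers entered instead of 4. It does not separate age from the antibiotic exposure of 8 of those livers. Here 7 of 29 members were called, which is 24.1%, against 11.1% of all genes tested (1043 higher and 851 lower); the difference between these shares was not tested. The genes that rose were Vnn1, Ech1, Crat, Hadh, Pex11a and Acadl, and the one that fell was Creb3l3. The members' median log2 fold change was 0.24, against -0.026 for all genes. By compartment, 3 of the 17 mitochondrial members (Crat, Hadh and Acadl) rose, 1 of the 5 peroxisomal members (Pex11a) rose, and Bdh1, the ketone gene, was not called. Both comparisons share the young livers and the aged controls, so the second is not an independent check of the first. The count of 7 was 3 without young 1 or without young 4, and 4 without young 3. It was 1 (Vnn1) without the 6 aged livers highest in muscle transcripts (aged control 2, PAM I 1 and 2, PAM II 2, 3 and 4), a setting that leaves PAM II with 1 library, whose spread is assumed to be that of the other groups.

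**Figure D2:**
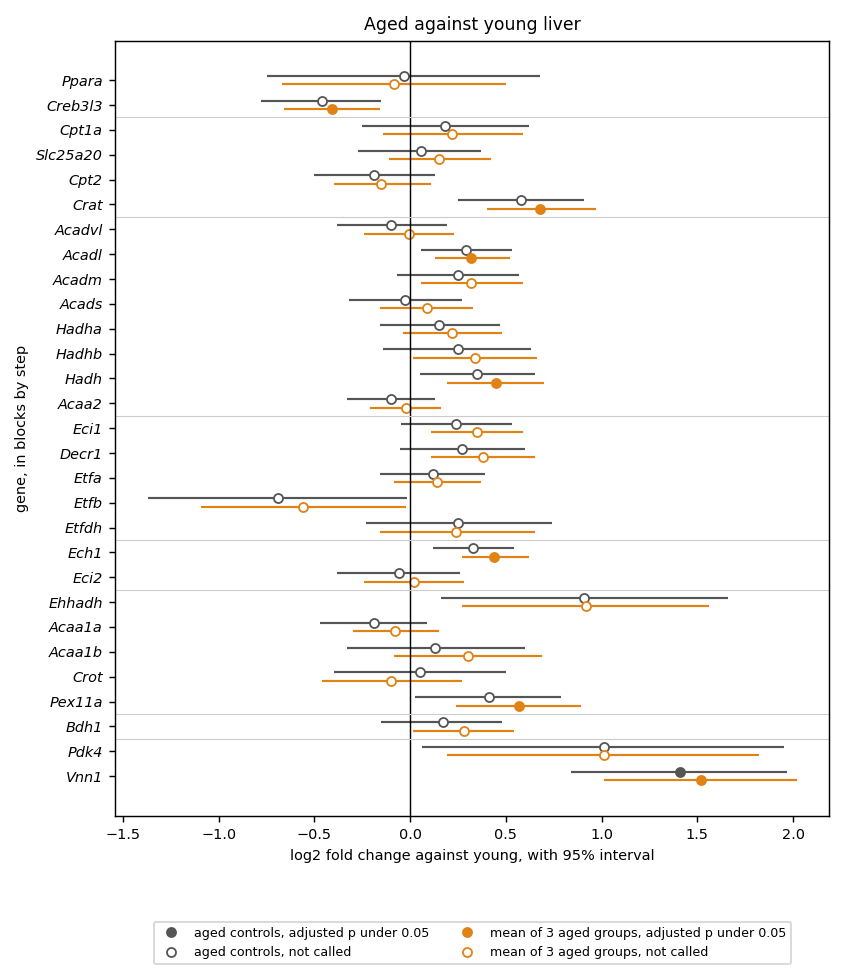
Points give the log2 fold change of each member against young livers and bars its 95% interval, in grey for aged controls and in orange for the mean of the 3 aged groups; filled points passed an adjusted p under 0.05. Vnn1 is filled in both, and Creb3l3, Crat, Acadl, Hadh, Ech1 and Pex11a are filled in orange only.

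Among the regulators, Creb3l3 encodes a membrane-bound transcription factor of the liver that works with PPARA in fasting. Its level was 345, 306, 263 and 362 CPM in the young livers and 268, 241, 248 and 168 CPM in the aged controls. The levels in PAM I were 227, 243, 272 and 268 CPM, and those in PAM II were 201, 251, 240.4 and 259.8 CPM. Of the 12 aged livers 9 were below the lowest young liver, young 3. Its log2 fold change was -0.46 ± 0.15 (SE; adjusted p = 0.0974) for aged controls and -0.41 ± 0.12 (adjusted p = 0.0365) for the 3 aged groups together, so Creb3l3 passed with 12 aged livers and not with 4. With 12 the call held in 17 of 28 alternative settings, with adjusted p up to 0.138.

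Ppara itself showed no shift with age that the test could detect. It measured 41.2, 70.5, 70.8 and 60.7 CPM in young livers and 41.2, 63.2, 99.6 and 33.5 CPM in aged controls. In PAM I it measured 62.6, 53.8, 28.7 and 29.1 CPM, and in PAM II 45.7, 78.5, 75 and 93.1 CPM. The ranges of the 4 groups overlapped, and the aged controls, from 33.5 to 99.6 CPM, took in the whole range of the young livers. The log2 fold change of aged controls against young was -0.034, with a 95% interval from -0.75 to 0.68, which leaves room for a change of either sign.

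In the carnitine shuttle, Crat encodes carnitine acetyltransferase, which moves short acyl groups between coenzyme A and carnitine. Young livers had 67, 99.3, 80.4 and 79.3 CPM, and aged controls 101, 125, 141 and 119 CPM. PAM I livers had 182, 143, 118 and 147 CPM, and PAM II livers 101, 139.7, 126 and 136 CPM. All 12 aged livers lay above the highest young liver. On the log2 scale the difference was 0.58 ± 0.16 (adjusted p = 0.0551) in aged controls, just outside the threshold, and 0.68 ± 0.13 (adjusted p = 0.00454) in the 3 aged groups, where it was called in 27 of 28 alternative settings.

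The other shuttle genes were not called in either comparison. Cpt1a, the outer-membrane carnitine palmitoyltransferase that controls entry of long chains, had a log2 fold change of 0.18 ± 0.21 in aged controls (adjusted p = 0.686). Its highest aged control, aged control 3 at 457 CPM, was more than any of the young livers, which ran from 205 to 294 CPM, and without that liver the log2 fold change was -0.1 (adjusted p = 0.815). Slc25a20, the carrier of acylcarnitine across the inner membrane, ran from 85.3 to 126 CPM in young and from 91.9 to 132 CPM in aged livers. Cpt2, which returns the acyl group to coenzyme A inside the mitochondrion, ran from 131 to 173 CPM in young and from 98.9 to 166 CPM in aged livers, with a log2 fold change of -0.19 ± 0.15 in aged controls (adjusted p = 0.536).

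In the mitochondrial cycle, Acadl (long-chain acyl-CoA dehydrogenase) and Hadh (the dehydrogenase of short and medium hydroxyacyl chains) were the members called in the comparison of 12 aged livers. Acadl measured 155, 171, 160.5 and 171 CPM in young livers and 176, 209.7, 236 and 182 CPM in aged controls. It measured 224, 218, 186 and 217 CPM in PAM I and 179.7, 209, 201 and 228 CPM in PAM II. All 12 aged livers were above all young livers, though the gap between the highest young and the lowest aged liver was small. The fitted log2 fold change was 0.29 ± 0.11 in aged controls (adjusted p = 0.168) and 0.32 ± 0.093 in the 3 aged groups (adjusted p = 0.0373), a call kept in 13 of 28 alternative settings.

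Hadh measured 271, 359, 284 and 341 CPM in young livers and 344, 448, 471 and 337 CPM in aged controls. Livers of PAM I had 471, 462, 378 and 442 CPM, and PAM II livers 399.6, 453, 415 and 518 CPM. Aged controls 1 and 4 overlapped the young livers, and the other 10 aged livers exceeded the highest young one. Fitted on the log2 scale, the difference was 0.35 ± 0.14 in aged controls (adjusted p = 0.192) and 0.45 ± 0.12 in the 3 aged groups (adjusted p = 0.0262), where 22 of 28 alternative settings kept the call.

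The other 6 genes of the cycle were not called. In the comparison of the 3 aged groups with young livers, Acadm (medium-chain dehydrogenase) had a log2 fold change of 0.32 ± 0.13 (adjusted p = 0.107). Acads (short-chain dehydrogenase) had 0.088, Acadvl (very-long-chain dehydrogenase) -0.0038 and Acaa2 -0.023. Acaa2 kept to a narrow range, from 657 to 861 CPM in young and from 633 to 897 CPM in aged livers. Hadha and Hadhb encode the alpha and beta subunits of the mitochondrial trifunctional protein, which carries out the later steps on long chains. Hadha had 0.22 ± 0.12 (adjusted p = 0.246) and Hadhb 0.34 ± 0.15 (adjusted p = 0.155).

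Hadha and Hadhb lie head to head, on the reverse strand at chr5:30118304-30155162 and the forward strand at chr5:30155248-30184593 (GRCm38). The 85 bases between their annotated starts, at chr5:30155163-30155247, have a GC content of 69.4% and are shown on the forward strand because both transcripts start from their ends:
Hadha-Hadhb: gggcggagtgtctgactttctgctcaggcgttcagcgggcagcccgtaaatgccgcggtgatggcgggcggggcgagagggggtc
Per length, the level of Hadha divided by that of Hadhb had a median of 3.06 over the 16 livers and ran from 2.85 to 3.99. The highest ratio was in young 1, where Hadhb measured 59.7 CPM, its lowest level in the study, and Hadha 315 CPM.

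Among the auxiliary enzymes, Eci1 (an isomerase for unsaturated chains) and Decr1 (dienoyl-CoA reductase) came close to the threshold in the 3 aged groups, with log2 fold changes of 0.35 ± 0.11 (adjusted p = 0.0596) and 0.38 ± 0.13 (adjusted p = 0.0644). Eci1 ran from 110.2 to 145 CPM in young and from 124 to 208 CPM in aged livers, where 9 of 12 exceeded each young liver. Decr1 ran from 120.3 to 170.2 CPM in young and from 145 to 254 CPM in aged livers, where 10 of 12 did. Etfa, a subunit of the electron transfer flavoprotein, and Etfdh, which passes its electrons to ubiquinone, were not called, with 0.14 ± 0.11 and 0.24 ± 0.19.

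Etfb, the other subunit of that flavoprotein, had 1 liver far from the rest. Young livers measured 119.6, 34.3, 31.2 and 44.7 CPM, and aged controls 35.5, 33.9, 28.6 and 44.3 CPM. PAM I livers had 45.7, 39.6, 47.3 and 53.5 CPM, and PAM II livers 37.4, 37.1, 34.1 and 35.4 CPM. Young 1 alone was above 53.5 CPM. The log2 fold change of aged controls against young was -0.69 ± 0.32 (adjusted p = 0.253) and became -0.051 without young 1 (adjusted p = 0.916). For the 3 aged groups it went from -0.56 to 0.076. Young 1 was also the liver highest in skeletal muscle transcripts, at 148 CPM summed. Its circadian clock transcripts summed to 397 CPM, the highest of the 16 livers, against 164 to 208 CPM in the other young livers. It also had the fewest assigned fragments, 36968993, and the fewest genes with a fragment, 20002. With the clock transcripts as a covariate the Etfb value of aged controls was -0.37 (adjusted p = 0.459). With the muscle transcripts as a covariate it stayed within the SE of 0.32 around -0.69 and was not called. The part of muscle tissue, clock transcripts or depth in the Etfb value was not tested.

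Of the enzymes found in both compartments, Ech1, an isomerase of dienoyl-CoA, gave the second smallest p-value in the comparison of the 3 aged groups. Young livers had 282, 277, 234 and 284 CPM and aged controls 336, 357, 338 and 322 CPM. In the PAM I group, values were 413, 387, 395 and 448 CPM, and those in PAM II were 321, 379, 344 and 369 CPM. Each aged liver exceeded each young liver. The log2 fold change was 0.33 ± 0.10 in aged controls (adjusted p = 0.0774) and 0.44 ± 0.082 in the 3 aged groups (adjusted p = 0.00335), with a call in 27 of 28 alternative settings. Eci2, another isomerase, had 0.019 ± 0.12 in the same comparison.

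The peroxisomal members did not move as one. Pex11a encodes a membrane protein that takes part in peroxisome division. It measured 83, 104, 72.8 and 96.7 CPM in young livers and 76, 127, 145 and 125 CPM in aged controls. In PAM I it measured 179, 176, 125 and 155 CPM, and in PAM II 107, 137, 115 and 133 CPM. The exception to a full separation was aged control 1, since 11 of 12 aged livers exceeded the highest young one. Its log2 fold change was 0.41 ± 0.18 in aged controls (adjusted p = 0.237) and 0.57 ± 0.15 in the 3 aged groups (adjusted p = 0.0276), where 23 of 28 alternative settings kept the call.

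Ehhadh, the peroxisomal bifunctional enzyme, had one of the larger differences and one of the larger spreads. Young livers had 156, 366, 222 and 224 CPM and aged controls 303, 535, 667 and 307 CPM. PAM I livers had 619, 429, 276 and 752 CPM, and PAM II livers 249, 581, 382 and 409 CPM. The groups overlapped through young 2, which was above 4 of the aged livers. On the log2 scale the difference was 0.91 ± 0.35 in aged controls (adjusted p = 0.174) and 0.92 ± 0.30 in the 3 aged groups (adjusted p = 0.0617), so Ehhadh did not pass although its fold was larger than that of 5 of the 6 genes that rose.

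Acaa1b ran from 1282 to 2022 CPM in young and from 1195 to 3389 CPM in aged livers, with a log2 fold change of 0.13 ± 0.22 in aged controls (adjusted p = 0.794). Acaa1a, its paralog, had -0.19 ± 0.13 (adjusted p = 0.46). Crot, which makes carnitine esters of the shortened chains for export from the peroxisome, had 0.051 ± 0.21 (adjusted p = 0.93).

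Bdh1, which interconverts acetoacetate and 3-hydroxybutyrate, stands alone for the ketone step in the list. It measured 195, 224, 208 and 250.2 CPM in young livers and 188, 255, 317 and 225 CPM in aged controls. The levels in PAM I were 279, 301, 252 and 296 CPM, and those in PAM II were 229, 268, 267 and 315 CPM. The 4 PAM I livers were above all young livers, while aged control 1 was below them. The fitted log2 fold change was 0.17 ± 0.15 in aged controls (adjusted p = 0.588) and 0.28 ± 0.12 in the 3 aged groups (adjusted p = 0.153), and Bdh1 was called in none of the 28 alternative settings of either comparison.

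Vnn1 lies on chromosome 10 at chr10:23894688-23905343, forward strand, and fragments were counted over its exons. Young livers measured 39.1, 61.8, 24.9 and 47 CPM and aged controls 71.6, 137, 149 and 99.8 CPM. PAM I livers measured 151, 151, 95.1 and 159 CPM, and PAM II livers 101, 129, 105 and 138 CPM. The lowest aged liver, aged control 1, was above the highest young liver, young 2. Fitted on the log2 scale, the difference was 1.41 ± 0.27 in aged controls (adjusted p = 0.0104), a fold of 2.65, and 1.52 ± 0.24 in the 3 aged groups (adjusted p = 0.00113), a fold of 2.86. In aged controls the call was lost at an adjusted p of 0.0591 when only the groups compared were fitted, 0.0667 without both aged control 4 and young 1, and 0.083 without the 6 aged livers high in muscle transcripts. In the 3 aged groups it held in 28 of 28 alternative settings.

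Pdk4 encodes a kinase that shuts the pyruvate dehydrogenase complex when fat is burned. It measured 7.75, 38.8, 16.1 and 14.1 CPM in young livers and 22.2, 47.3, 57 and 27.8 CPM in aged controls. PAM I livers had 54.8, 46.3, 18 and 26.2 CPM, and PAM II livers 28.9, 38.2, 48.8 and 48.7 CPM. The single high young liver, young 2, made the groups overlap. The log2 fold change was 1.01 ± 0.45 in aged controls (adjusted p = 0.236) and 1.01 ± 0.38 in the 3 aged groups (adjusted p = 0.0982). Without young 2 it was 1.62 (adjusted p = 0.0471) and 1.61 (adjusted p = 0.016).

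**Figure D3:**
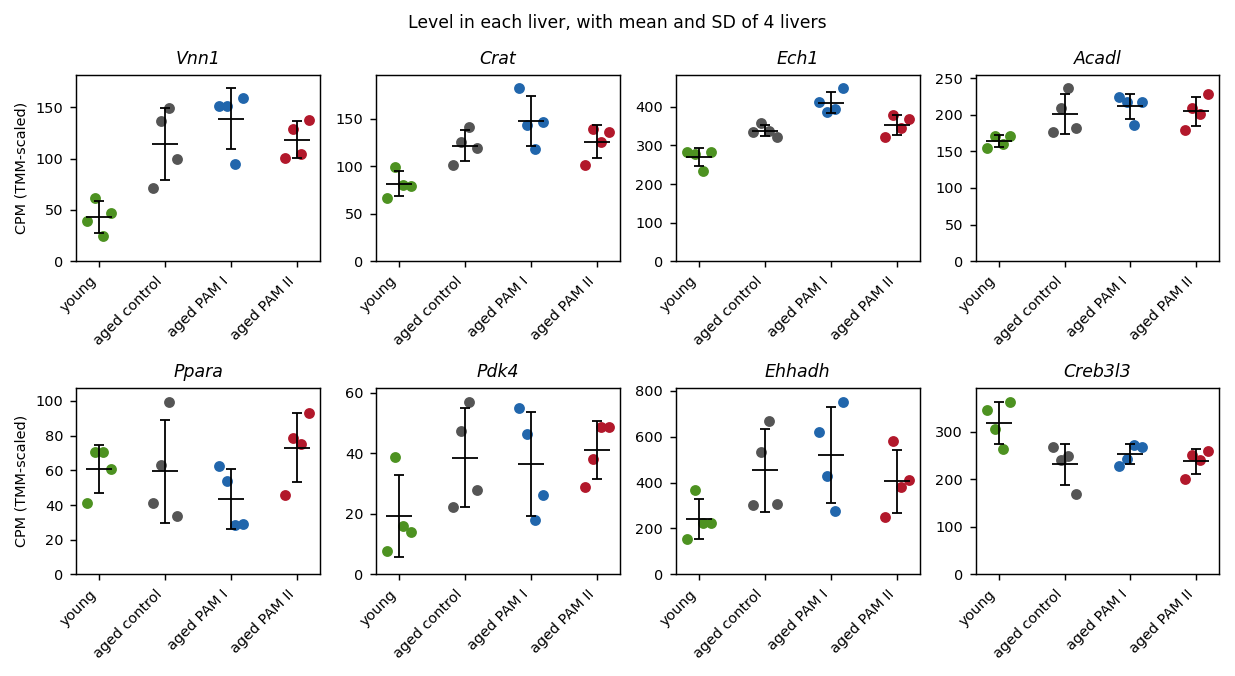
Dots give the TMM-scaled CPM of 8 members in each liver by group, with the mean as a line and the SD of 4 livers as bars. For Vnn1, Crat, Ech1 and Acadl the 12 aged dots lie above the 4 young ones, while Ppara, Pdk4 and Ehhadh overlap between groups and most aged dots of Creb3l3 lie low.

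Beside these results, 4 members (Crat, Acadl, Ech1 and Vnn1) had all 4 aged controls above all 4 young livers, and none had all below; over all genes tested, 4.83% lay wholly above and 4.44% wholly below. The same 4 members had all 12 aged livers above the young ones, against 2.69% of all genes wholly above and 1.81% wholly below. Markers of several cell types moved with age as well. In aged controls against young livers the 8 hepatocyte markers all had a negative log2 fold change, with a median of -0.38 and 1 called lower. Their mean log2(CPM + 0.5) was between 11.99 and 12.07 in young livers and between 11.32 and 11.78 in the 12 aged livers, with no overlap. Their summed level did overlap, at 104378 to 114741 CPM in young livers and 61159 to 119640.3 CPM in aged ones. Of 6 endothelial markers 2 were called lower (median -0.64). Of the 8 monocyte-derived macrophage transcripts 4 were called higher (median 2.58), and the 10 Kupffer cell transcripts were all positive (median 0.96) with 0 called and 1 at an unadjusted p under 0.05. The 6 cholangiocyte (bile duct cell) transcripts were also all positive, with a median of 0.77, 0 called and 1 at an unadjusted p under 0.05. Spp1 is in this list and in that of monocyte-derived macrophages. The 15 skeletal muscle transcripts were all negative, with a median of -3.52, 0 called and 8 at an unadjusted p under 0.05. The part of cell content in the differences with age was not tested.

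The mitochondrial, peroxisomal and ketone steps were then set side by side. For each liver the mean log2(CPM + 0.5) of the genes of a step was taken and the mean of the young livers subtracted. The 17 mitochondrial genes averaged 0.12 ± 0.23 in aged controls (SD, n = 4), 0.29 ± 0.11 in PAM I and 0.20 ± 0.14 in PAM II, where the young SD was 0.16. The 5 peroxisomal genes averaged 0.25 ± 0.31, 0.50 ± 0.20 and 0.22 ± 0.20, with a young SD of 0.17. Bdh1 averaged 0.15 ± 0.32, 0.37 ± 0.11 and 0.30 ± 0.19, with a young SD of 0.15.

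In PAM I the peroxisomal mean exceeded the mitochondrial mean by 0.25, 0.12, 0.13 and 0.33 in the 4 livers. In aged controls this difference was -0.024, 0.19, 0.22 and 0.13, and in PAM II it was -0.055, 0.15, -0.0016 and 0.0072. Young livers had 0.037, 0.066, -0.058 and -0.045. The 4 PAM I values lay above the 4 young values and overlapped those of the aged controls, of which 3 of 4 were also above the young values. The peroxisomal mean rests on 5 genes, of which Ehhadh and Acaa1b varied most, and no test was made of these means, since the genes of a step are not replicates. With upper-quartile scaling the peroxisomal means were 0.30, 0.59 and 0.28 and the mitochondrial means 0.17, 0.38 and 0.25, in the same group order.

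**Figure D4:**
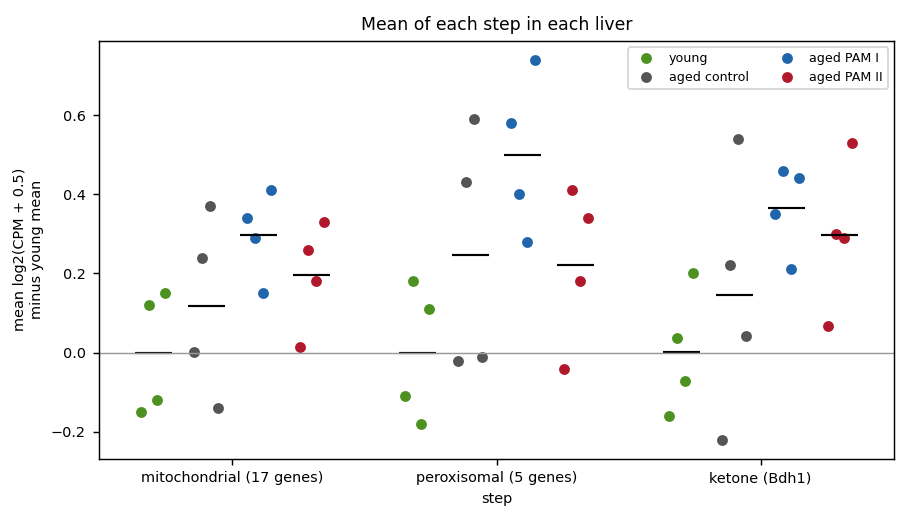
Each dot is 1 liver's mean log2(CPM + 0.5) over the genes of a step minus the young mean, with groups by colour and a line at each group mean. The peroxisomal dots of PAM I run from 0.28 to 0.74, above the young dots, and the dots of the other aged groups spread across both.

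The comparison with antibiotics asked whether exposed aged livers differ from aged livers without exposure. No member was called in PAM I or in PAM II against the aged controls, nor was any gene (0% and 0% of 17046). At an unadjusted p under 0.05 there were 3 members and 1602 genes for PAM I, and 0 members and 465 genes for PAM II. DESeq2 and limma-voom also called 0 members in each. The same 4 aged controls serve both comparisons, so a high or low control moves both. The median log2 fold change of the members was 0.18 in PAM I and 0.06 in PAM II, against 0.016 and 0.0056 for all genes, and 24 and 24 of the 29 members had positive values. The tally for PAM II rested on a few livers. It was 10 without aged control 4, with a median of -0.016. Without the 6 aged livers highest in muscle transcripts it was 6, with a median of -0.14. That setting leaves PAM II with 1 library, PAM II 1, which was the lowest of its group for 26 of 29 members. The fall therefore cannot be told apart from the level of that liver. For PAM I the tally was 22 and 24 in these settings, with medians of 0.07 and 0.22. The 15 skeletal muscle transcripts were all positive in PAM I and in PAM II against the aged controls, with medians of 2.57 and 3.66. None was called, and 1 and 10 had an unadjusted p under 0.05. With the muscle transcripts as a covariate the tallies of the members were 24 and 19. The part of muscle tissue in the members' values was not tested.

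In PAM I the smallest p-values belonged to Ech1, Acaa1b and Pex11a. The 4 PAM I livers had more Ech1 than each of the aged controls, from 387 to 448 CPM against 322 to 357 CPM, a log2 fold change of 0.28 ± 0.10 (adjusted p = 0.506). Over all genes, 3.07% lay wholly above the controls and 2.4% wholly below. For Acaa1b the PAM I livers had 2823, 2293, 2212 and 3389 CPM and the aged controls 1195, 2305, 2250 and 1650.2 CPM. These ranges overlapped, and the log2 fold change was 0.53 ± 0.22 (adjusted p = 0.506). Pex11a had 0.43 ± 0.18 (adjusted p = 0.513). Of these, Acaa1b and Pex11a are peroxisomal, but none passed. At an unadjusted p under 0.05 there were 3 of 29 members beside 1602 of 17046 genes. These shares are similar, so nothing particular to a step can be read from them.

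For the other steps the values in PAM I and in PAM II, each against the aged controls, did not pass either. Eci1 had 0.29 ± 0.14 and 0.029 ± 0.14. Bdh1 had 0.20 ± 0.15 and 0.13 ± 0.15. Cpt1a had -0.08 ± 0.21 and 0.21 ± 0.21, and Vnn1 0.28 ± 0.26 and 0.052 ± 0.26. Ppara had -0.45 ± 0.34 and 0.30 ± 0.34. Aged control 3, the control highest in both Cpt1a and Ppara, weighed on these values. Without it Cpt1a had 0.19 in PAM I and 0.48 in PAM II, and Ppara had -0.1 and 0.66, none of them called. The 95% intervals of all members lay between -1.17 and 1.06 in PAM I and between -0.91 and 1.03 in PAM II, so changes up to these sizes remain possible for the genes with the widest intervals; the median SE of a member was 0.15 in each.

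PAM II and PAM I were also compared directly. No member and no gene was called (0% of 17046), with 3 members and 778 genes at an unadjusted p under 0.05. Those members were Acaa1b, with a log2 fold change of -0.57 ± 0.22 in PAM II against PAM I, Ech1 with -0.22 ± 0.10 and Ppara with 0.75 ± 0.34, each at an adjusted p of 0.88. For Ech1, Etfb and Acaa1b all 4 PAM II livers lay below all 4 PAM I livers, as did 2.9% of all genes. Against the aged controls, the mean of both antibiotic groups gave no call (0%), 0 members at an unadjusted p under 0.05 and 961 genes. Ech1 again had the smallest p-value, at 0.17 ± 0.085 (adjusted p = 0.867). The members' 95% intervals in that comparison ran from -0.80 to 0.81.

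**Figure D5:**
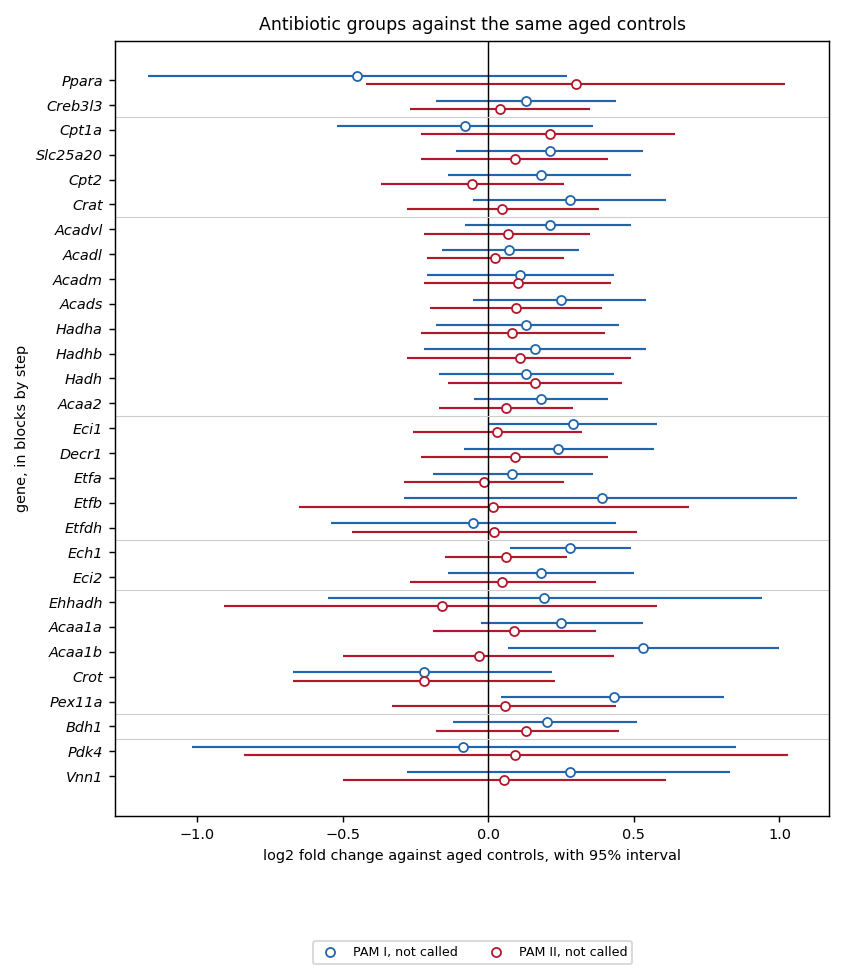
Points give the log2 fold change of each member in PAM I (blue) and PAM II (red) against the same 4 aged controls, with 95% intervals as bars; none passed an adjusted p under 0.05. Ech1, Acaa1b and Pex11a are the PAM I intervals that lie wholly above 0.

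Within a group, single livers were high or low for many members at once. Aged control 3 was the highest of its group for 23 of 29 members and aged control 4 the lowest for 19. PAM II 1 was the lowest of its group for 26 and PAM I 3 for 20, while PAM I 4 was the highest for 15 and PAM II 4 for 17. Of all genes tested, aged control 3 was the highest for 27.6%, aged control 4 the lowest for 34.4%, PAM II 1 for 37.1% and PAM I 3 for 28.4%. The livers low for most members were rich in Kupffer cell transcripts, at 1767 CPM in PAM II 1, 1451 CPM in PAM I 3 and 796 CPM in aged control 4, while aged control 3 had 238 CPM, the lowest of the study. Aged control 1, with 837 CPM, was the lowest of its group for 9 members. PAM I 4 went the other way, with 1201 CPM and the highest level of 15 members. Young 1, the lowest young liver for 17 members, had 258 CPM. Other cell types differed in the same livers. PAM II 1 and aged control 4 had the lowest mean log2 level of hepatocyte markers in their groups, at 11.32 and 11.43. They also had the highest sums of monocyte-derived macrophage transcripts, 268 and 201 CPM, and of cholangiocyte transcripts, 204 and 141 CPM. Both lists hold Spp1, so these sums are not separate measures. PAM I 3 had the lowest hepatocyte sum of the study, 61159 CPM, but the lowest monocyte-derived macrophage and cholangiocyte sums of its group, 85.5 and 38.6 CPM. The hepatocyte measures did not rank the livers alike. By mean log2 level PAM I 3, at 11.54, was above PAM I 2, at 11.45. By sum aged control 4, at 91163 CPM, was above aged controls 1 and 2, at 78248 and 88853 CPM. The part of cell content in these levels was not tested.

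Other genes of the same pathways were taken from 6 lists, chosen from general knowledge with earlier results of these data known and sharing some genes. Known PPARA targets outside the members gave most calls in aged controls against young livers, with 7 higher and 1 lower of 34 tested, where 1.92% of all genes were called higher and 1.31% lower. Their median log2 fold change was 0.50, beside -0.0077 for all genes. The 4 with the smallest p-values rose on the log2 scale: Cidec, a lipid droplet protein, by 3.64 ± 0.47, Cyp4a14, an omega-hydroxylase of fatty acids, by 2.34 ± 0.30, Cd36, a fatty acid transporter, by 2.74 ± 0.37, and Acot2, a mitochondrial thioesterase, by 1.86 ± 0.27 (adjusted p at most 0.0014). Their rises exceeded that of Vnn1, at 1.41. The part of PPARA or of any other receptor in these levels was not tested. In the 3 aged groups 15 of the 34 rose and 2 fell, where 6.12% of all genes rose and 4.99% fell. Fat cells express several of these genes too. The summed level of 7 fat cell transcripts ran from 4.69 to 27.2 CPM in young livers and from 7.18 to 94.1 CPM in aged controls. In PAM I it ran from 65.3 to 168 CPM and in PAM II from 62.8 to 124 CPM. Adipoq, the adiponectin gene, averaged 0.0332 CPM in young livers and 0.00504 CPM in aged controls. Plin1 averaged 0.0184 and 0.0157 CPM, and Lep was at 0 in both groups. Cfd, Retn and Ucp1 enter the sum only. Cidea, the most abundant of the list in aged controls on average, had 0.0613 CPM in young livers and 54.2 CPM in aged controls. In aged control 1 all 7 together summed to 7.18 CPM, so that mean does not hold in each liver. The part of fat tissue in these levels was not tested.

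Ketone genes other than Bdh1 gave 1 call of 9 tested, Slc16a7, a monocarboxylate transporter that carries ketone bodies, at 37.9 ± 12.7 CPM in young livers and 81.8 ± 17.9 CPM in aged controls (log2 fold change 1.11 ± 0.26, adjusted p = 0.0319). Other peroxisomal genes gave 2 higher and 1 lower of 34. Abcd2, an importer of very long chains, rose by 1.58 ± 0.41 (adjusted p = 0.0495), and Nudt7, which breaks down coenzyme A in peroxisomes, fell by 1.58 on the log2 scale, from 570.2 ± 131 to 190.2 ± 43.2 CPM (adjusted p = 0.00114). Eci3 was called higher (adjusted p = 0.0457) at levels of 0.0195 ± 0.0255 and 0.856 ± 0.881 CPM, too few fragments for a useful fold.

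Other mitochondrial oxidation genes gave 0 calls of 26, with 4 at an unadjusted p under 0.05. The one with the smallest p-value was Ivd, of leucine breakdown, at -0.63 ± 0.18 (adjusted p = 0.0621). Genes of malonyl-CoA and pyruvate dehydrogenase control gave 0 of 19, with 2 at an unadjusted p under 0.05, led by Prkab2, a subunit of the kinase AMPK, at 0.76 ± 0.21 (adjusted p = 0.0561). Other regulators gave 1 of 24, Pparg, the receptor best known from fat cells, at 0.76 ± 0.19 (adjusted p = 0.0398). In the 3 aged groups against young livers, these 5 lists gave 1 call for ketone genes, 2 higher and 3 lower for peroxisomal genes, 2 lower for mitochondrial genes (Ivd and Acadsb), 1 higher for Prkab2, and Pparg higher with Foxa2 lower among regulators.

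With antibiotics, none of these 6 lists held a called gene. In PAM I against aged controls the smallest p-values of the lists were those of G0s2, an inhibitor of lipolysis, at 0.87 ± 0.19 (adjusted p = 0.506), Sirt1 at -0.43, Cpt1b at -1.25, Slc16a6 at -0.51, Mlycd at 0.19 and Acot8 at 0.29. In PAM II they were those of Ppard, a receptor related to PPARA, at -0.99 ± 0.28 (adjusted p = 1), Txnip at 0.67, Pdk2 at 0.28, Slc16a6 at -0.41, Pex16 at 0.23 and Cpt1b at -0.63. Cpt1b, the muscle form of the outer-membrane transferase, was under 1 CPM on average in these groups.

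PPARA binds direct repeats of a hexamer with 1 base between them, so the promoters of the members were searched for the idealised form AGGTCANAGGTCA, on both strands of the 250 bases before each start in RefSeq (GRCm38.p6). Of the members, 25 had a promoter in that table. Crat, Acaa2, Decr1 and Vnn1 had none, so the called members Vnn1 and Crat could not be searched. None held the motif with 0 or 1 of its 12 fixed letters differing. With up to 2 differing, 2 of 25 (8.0%) held it, against 3.72% of 27025 genes, each taken at its best promoter. With up to 3 differing 6 of 25 (24.0%) held it, against 23.7%. Windows with up to 4 letters differing occur for 77.0% of these genes and with up to 5 for 99.7%. The best match of each called member in the table, and of Etfa, the other with 2 letters differing, is shown in 60 bases, 5′ to 3′ on the strand of the gene, with the motif's place in capitals:
Creb3l3: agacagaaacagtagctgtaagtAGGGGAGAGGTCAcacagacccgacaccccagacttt
Etfa: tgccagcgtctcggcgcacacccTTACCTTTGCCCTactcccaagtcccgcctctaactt
Hadh: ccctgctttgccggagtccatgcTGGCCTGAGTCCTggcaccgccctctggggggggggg
Ech1: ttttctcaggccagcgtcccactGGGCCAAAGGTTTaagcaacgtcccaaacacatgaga
Acadl: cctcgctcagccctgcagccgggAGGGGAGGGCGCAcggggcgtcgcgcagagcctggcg
Pex11a: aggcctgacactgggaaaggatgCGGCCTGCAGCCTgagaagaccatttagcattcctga
The letters differing were 2 for Creb3l3 (chr10:81092764-81092823, before a start inside the gene) and Etfa (chr9:55512284-55512343). They were 3 for Hadh (chr3:131272151-131272210), 4 for Ech1 (chr7:28825120-28825179), and 5 for Acadl (chr1:66863400-66863459) and Pex11a (chr7:79743307-79743366). In Etfa, Hadh and Pex11a the match is on the opposite strand. Of the genes shown, Creb3l3 fell, Hadh, Ech1, Acadl and Pex11a rose, and Etfa was not called. A link between the matches and the levels was not tested. The overlap of a window with these letters is a description and does not mark a binding site, and sites outside the 250 bases were not searched.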

How the data were processed

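Unnormalised counts of fragments for each gene were deposited, with 1 file for each library. Per the file headers, featureCounts 1.5.0-p2 counted paired fragments over exons with strand setting 1 and the Ensembl release 99 annotation of GRCm38; per the submitters' processing notes, reads were trimmed with Trimmomatic 0.38 and aligned to mm10 with HISAT2 2.1.0. Here the counts were fitted in R 4.3.3 with edgeR 4.0.16 (filterByExpr by group, TMM, robust quasi-likelihood F test, 1 mean per group, 16 libraries). P-values were adjusted by Benjamini-Hochberg over 17046 genes in each of 6 contrasts, and a gene was called at an adjusted p under 0.05. SE is that of the log2 fold change. Groups follow the labels' group and age fields, since a free-text field describes the 12-week livers as aged too. Replicates were numbered in accession order and pair nothing. No libraries were copies of each other. DESeq2 1.42.0, limma 3.58.1, other scalings and filters, covariates and left-out libraries were alternatives. The members and lists were chosen with earlier results of these data known. All 29 members are named; of each other list the called genes, at most 4 by smallest p, or else the 1 with the smallest p. Markers of other cells are given as summed CPM. Counting precision is high at these depths, so the spread between 4 livers sets the errors.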

Additional observations from a re-analysis of the deposited data

Results flagged for a closer look

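Of 116 sets of 4 livers (29 members in 4 groups), 6 held a highest or lowest liver whose gap to the next took up more of the group's range than Dixon's critical value for 4 samples, which chance alone exceeds in about 1 of 20 sets. Etfb was 119.6 CPM in young 1, against 31.2 to 44.7 CPM in the other young livers. Ech1 was 234 CPM in young 3, against 277 to 284 CPM. Vnn1 was 95.1 CPM in PAM I 3, against 151 to 159 CPM, and Acadm was 319 CPM in the same liver, against 369 to 377 CPM. In PAM I 4, Acaa2 was 897 CPM, against 769 to 789 CPM, and Cpt2 was 166 CPM, against 146 to 149 CPM.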

How the results depend on the processing

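No called value of a member changed direction in the 28 alternative settings, and the count of called members in the 4 antibiotic comparisons was 0 in each of them. For aged controls against young livers the count of 1 became 3 with upper-quartile scaling, 2 with a stricter filter, 4 with DESeq2, 3 with limma-voom and 0 with only the groups compared, without both aged control 4 and young 1, or without the 6 aged livers high in muscle transcripts; leaving out 1 library gave 1 to 3, with 3 without young 2 and 2 without PAM II 1. For the 3 aged groups against young livers the count of 7 became 11 with upper-quartile scaling, 11 with DESeq2, 12 with limma-voom, 3 without both aged control 4 and young 1 and 1 without the 6 aged livers; leaving out 1 library gave 3 to 8. The cause of these differences was not tested, except that settings with fewer libraries have fewer values. No paired analysis was possible because the labels give no replicate numbers shared between groups. The 4 livers of a group limit what can be seen: the median SE of a member was 0.15 on the log2 scale.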
